A study of Mus musculus with 4 samples.

Results

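Transcripts of 10 genes used as markers of osteoblasts and osteocytes were followed in C3H10T1/2 cells, an established mouse line of mesenchymal stem cells, 6 hours after bone morphogenetic protein 3 (BMP3) was added. The genes were Alpl, Sp7, Ibsp, Dmp1, Phex, Pth1r, Sparc, Tnfrsf11b, Mepe and Sost, and all 18 probe sets annotated to one of these symbols alone were taken. They stand among 45037 probe sets and 18193 genes with a probe set of their own. The tested cultures received recombinant human BMP3 at 100 ng/ml, and the control cultures were left untreated. Each group had 2 arrays, named as biological replicates by the labels, of this single line grown under standard conditions. Cultures of the line were measured, not bone-forming cells taken from an animal. No source says whether a replicate number marks a shared day or batch, and p-values measure only the spread between these cultures.

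Osteoblasts arise from mesenchymal progenitors. The transcription factor osterix (Sp7) commits cells to the lineage, alkaline phosphatase (Alpl) then frees phosphate for mineral, and acidic matrix proteins such as bone sialoprotein (Ibsp) appear as the matrix matures. Cells buried in that matrix become osteocytes, which make dentin matrix protein 1 (Dmp1), the endopeptidase Phex, the matrix phosphoglycoprotein Mepe and sclerostin (Sost). BMP3 is an abundant bone protein of the TGF-beta superfamily and is known to act against osteogenic BMPs.

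Of the 10 genes, 4 were expressed above the dim level and 6 were not. The dim level was a log2 value of 6, and it was reached on all 4 arrays by Sparc, Dmp1, Phex and Tnfrsf11b, with 7 probe sets between them. The other 11 probe sets stayed below it on all 4 arrays, and they include every probe set of Alpl, Sp7, Ibsp, Pth1r, Mepe and Sost. The cells thus carried signal for Dmp1 and Phex, which are known as late markers, while the probe sets of the early markers Sp7 and Alpl stayed dim. None of the 18 probe sets differed between BMP3 and control arrays by limma's test, whether by adjusted p (0 of 18, with 0% of all probe sets called) or by an unadjusted p under 0.05 (0 of 18, with 8.39% of all probe sets called).

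**Figure D1:**
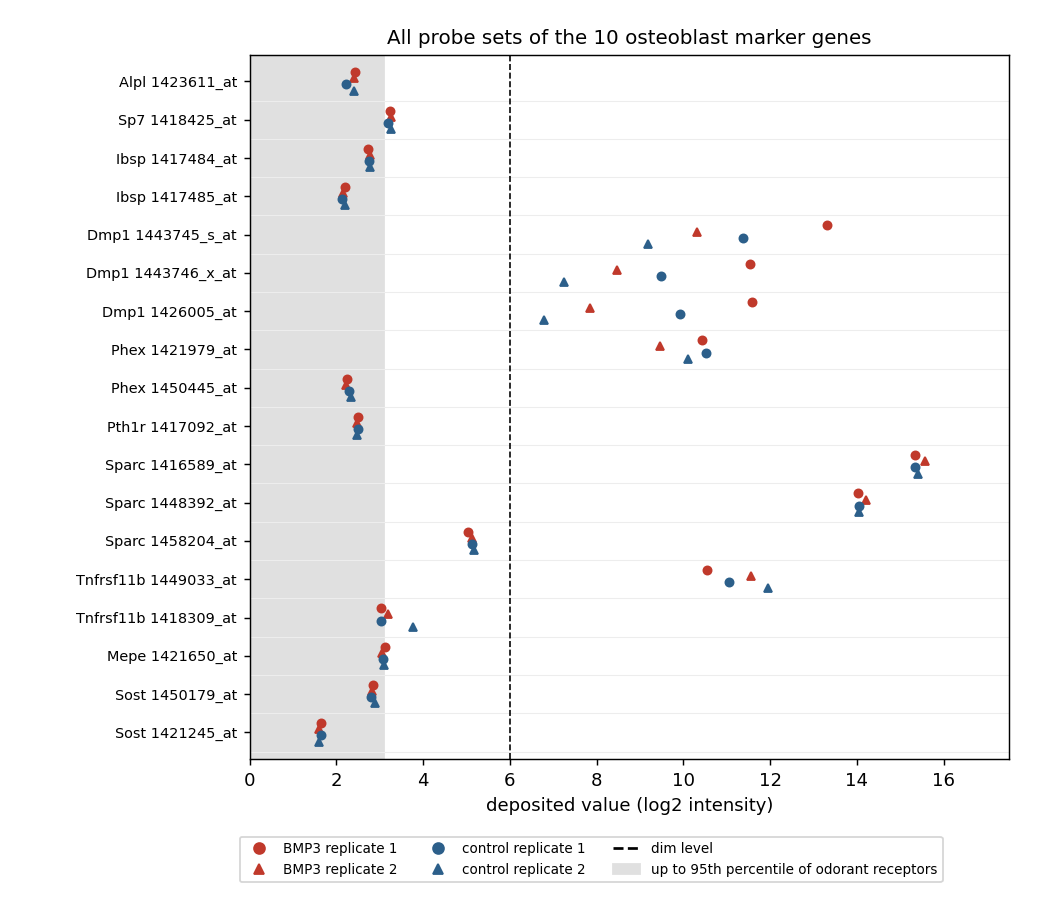
Deposited log2 intensity (horizontal axis) of each of the 18 probe sets of the 10 marker genes (rows) on the 2 BMP3 arrays (red) and the 2 control arrays (blue), with circles for replicate 1 and triangles for replicate 2. The dashed line is the dim level of 6, and the grey band ends at 3.09, the highest array's 95th percentile over odorant receptor probe sets. The 7 rows of Dmp1, Phex, Sparc and Tnfrsf11b named in the text as bright lie right of the line.

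Dmp1 is the member with the widest differences between groups and between replicates, and its nearest protein-coding neighbours on mouse chromosome 5 belong to the same family of acidic phosphoproteins of mineralised matrix. In the RefSeq gene table (GRCm38.p6), Dspp precedes Dmp1, and Ibsp and Mepe follow it. The windows around the annotated transcript starts of Dmp1, and that of its neighbour Ibsp for comparison, are shown because one gene was bright and the other dim in the same cells. Each runs 5' to 3' from 250 bases before the start to 50 bases from it, on the plus strand, with sequence from RefSeq (GRCm38.p6). Capitals mark matches on either strand to CAGAC (a core of SMAD-binding elements), CACGTG (an E-box), GGCGCC (a GC-rich element bound by BMP-specific SMADs) or TATAAA (the TATA box).
Dmp1 first start, chr5:104197325-104197624: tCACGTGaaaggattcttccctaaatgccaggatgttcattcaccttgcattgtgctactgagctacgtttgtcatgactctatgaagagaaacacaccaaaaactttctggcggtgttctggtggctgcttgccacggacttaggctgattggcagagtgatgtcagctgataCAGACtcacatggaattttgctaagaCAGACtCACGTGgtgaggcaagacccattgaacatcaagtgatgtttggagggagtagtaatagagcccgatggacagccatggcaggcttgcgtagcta
Dmp1 second start, chr5:104202367-104202666: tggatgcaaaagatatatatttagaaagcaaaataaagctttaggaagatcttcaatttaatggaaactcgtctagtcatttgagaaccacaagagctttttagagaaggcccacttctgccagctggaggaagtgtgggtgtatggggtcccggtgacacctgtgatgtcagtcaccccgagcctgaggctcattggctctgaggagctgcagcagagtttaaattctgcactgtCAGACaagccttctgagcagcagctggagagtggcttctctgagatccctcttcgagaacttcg
Ibsp start, chr5:104299037-104299336: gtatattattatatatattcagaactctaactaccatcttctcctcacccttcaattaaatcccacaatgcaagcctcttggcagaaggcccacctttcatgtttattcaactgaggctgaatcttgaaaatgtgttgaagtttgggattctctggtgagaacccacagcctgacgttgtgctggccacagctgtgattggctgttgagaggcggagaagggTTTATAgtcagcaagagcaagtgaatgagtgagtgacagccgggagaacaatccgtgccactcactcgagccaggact

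The first Dmp1 window held 2 CAGAC and 2 CACGTG matches, at 76 and 50 bases and at 249 and 44 bases before the start. The second held 1 CAGAC match, 14 bases before the start. The Ibsp window held no CAGAC or CACGTG match and 1 TATAAA match on the opposite strand (TTTATA), 28 bases before the start, where work on the rat gene had described an inverted TATA element. No window of the 3 held GGCGCC. Across 32544 windows of the same length, 49.5% held CAGAC, 7.17% held CACGTG, 11.9% held GGCGCC and 13.6% held TATAAA. The CAGAC and CACGTG matches did not overlap. A match is a description of the letters and says nothing on whether a factor binds there. Windows were at hand for 8 of the 10 genes, and only the first Dmp1 window among their 12 held CACGTG. Matches to CAGAC also lay in the windows of the bright genes Phex and Sparc and of the dim genes Mepe and Pth1r. The windows of the dim genes Alpl, Ibsp and Sost held none.

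Among the matrix proteins, Dmp1, which binds calcium and nucleates mineral, had higher mean values in BMP3 arrays at all 3 of its probe sets, but the replicates of each group lay far apart. At the brightest, 1443745_s_at, the log2 values were 13.32 and 10.31 in BMP3 arrays and 11.37 and 9.18 in control arrays (replicates 1 and 2). At 1443746_x_at they were 11.54 and 8.47 in BMP3 arrays and 9.49 and 7.24 in control arrays. At 1426005_at they were 11.58 and 7.84 in BMP3 arrays and 9.93 and 6.78 in control arrays. At each probe set the order was the same, with BMP3 replicate 1 highest, then control replicate 1, then BMP3 replicate 2, then control replicate 2. The groups therefore overlapped, since BMP3 replicate 2 lay below control replicate 1.

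The mean log2 difference of Dmp1, BMP3 minus control, was 1.54 with a standard error of 1.47 at the brightest probe set, a 2.91-fold higher mean, with a 95% confidence interval on the fold of 0.124 to 68 (limma adjusted p = 0.899). The differences at 1443746_x_at and 1426005_at were 1.64 ± 1.51 and 1.36 ± 1.94 (± SE, limma adjusted p = 0.897 and 0.935). These intervals hold both large increases and large decreases. Without BMP3 replicate 1 the difference was 0.04 at the brightest probe set and -0.51 at 1426005_at, and without control replicate 2 it was -0.22 at 1426005_at. The first pair of probe sets was designed on 1 expressed sequence tag, so they share a target, and the suffixes _s_at and _x_at mark probes that can also match other transcripts. The third was designed on a separate messenger RNA record and carries neither suffix.

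The distance between the Dmp1 replicates was among the widest on the arrays. At 1426005_at the replicates differed by 3.73 log2 units in the BMP3 group and by 3.16 in the control group. Of the 17152 probe sets that averaged the dim level or more, 7 had a BMP3 replicate distance at least as wide and 2 had a control replicate distance at least as wide, this probe set included in each count. At the other 2 probe sets, between 14 and 21 of the 17152 had distances as wide. The cause of the distance was not tested.

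**Figure D2:**
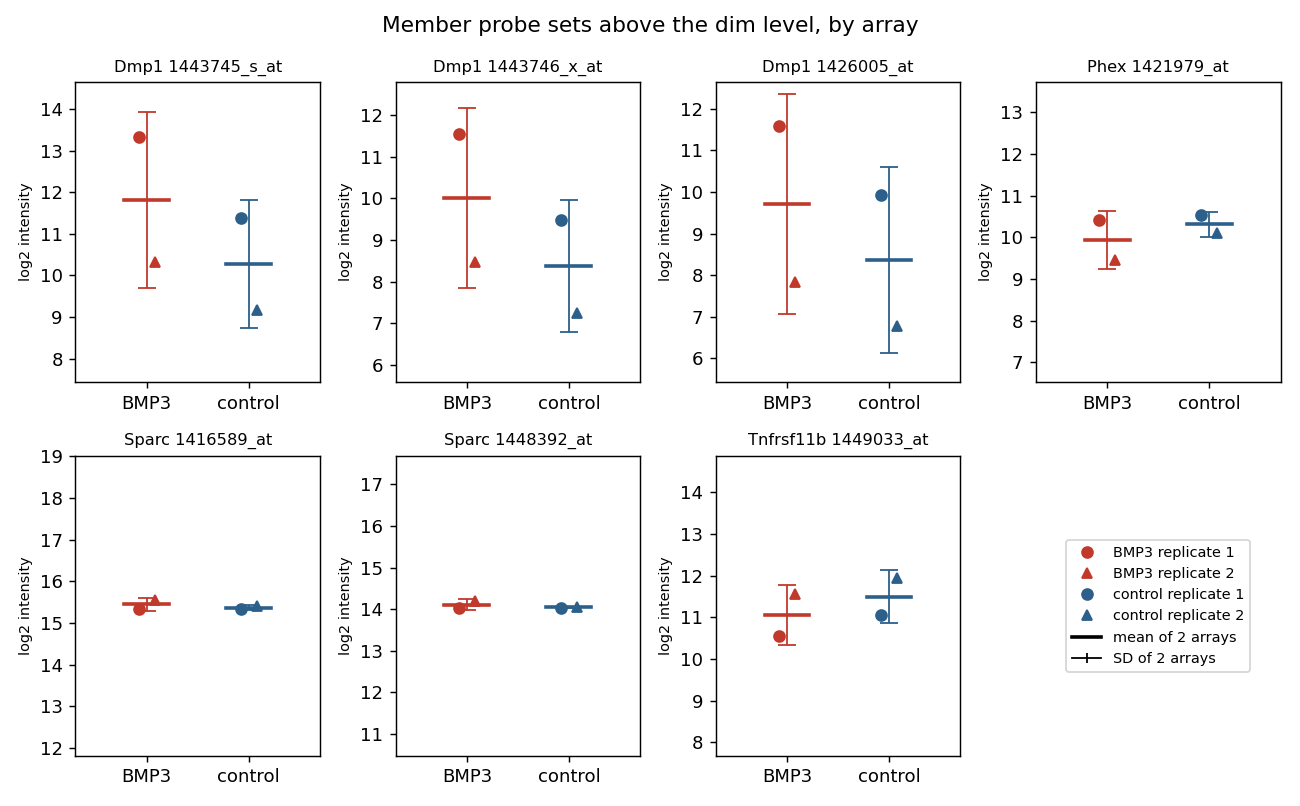
Log2 intensity (vertical axis) at the 7 member probe sets above the dim level, for BMP3 (red) and control arrays (blue), with replicate 1 as a circle, replicate 2 as a triangle, and the mean with the SD of the 2 arrays. Every panel spans the same number of log2 units. Replicate 1 lies above replicate 2 in both groups for Dmp1 and Phex and below it in both for Tnfrsf11b and, by small distances, Sparc. The groups overlap in every panel.

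The 4 neighbours of Dmp1 with a probe set, taken in order along the chromosome, stayed below the dim level on all arrays. Ibsp, which encodes bone sialoprotein, an RGD-bearing nucleator of hydroxyapatite, lay between 2.14 and 2.78 over its 2 probe sets and all 4 arrays. Mepe, from which an acidic peptide that inhibits mineralisation is released, lay between 3.05 and 3.13. Dspp, the dentin sialophosphoprotein gene and no member of the list, had 1.86 and 1.84 in BMP3 arrays and 1.84 and 1.88 in control arrays. Each of these 3 genes stayed below the median of every array (3.31 to 3.40). Sparcl1, a relative of Sparc that precedes Dspp and is no member, had 3.31 and 3.03 in BMP3 arrays and 3.82 and 3.26 in control arrays, and exceeded the median on control replicate 1. Differences of Ibsp and Mepe were at most 0.02 in size.

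Sparc, which encodes the collagen-binding matrix protein osteonectin, was bright and closely similar on all arrays. At 1416589_at the log2 values were 15.34 and 15.56 in BMP3 arrays and 15.33 and 15.40 in control arrays. At 1448392_at they were 14.02 and 14.20 in BMP3 arrays and 14.04 and 14.05 in control arrays. The groups overlapped at both. The differences were 0.08 ± 0.10 and 0.06 ± 0.08 (± SE, limma adjusted p = 0.919 and 0.922), and the intervals on the fold ran from 0.859 to 1.3 and from 0.883 to 1.24. Sparc thus had the narrowest intervals of the 4 bright genes. Sparc is made by fibroblasts as well as by osteoblasts. The remaining Sparc probe set, 1458204_at, was designed on another sequence and stayed at 5.04 to 5.18.

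Phex and Alpl are the enzymes of the list. Phex, a membrane endopeptidase whose loss causes X-linked hypophosphataemia, had log2 values of 10.42 and 9.45 in BMP3 arrays and 10.53 and 10.10 in control arrays at 1421979_at. The lowest value was that of BMP3 replicate 2, and BMP3 replicate 1 lay between the control arrays. The difference was -0.38 ± 0.42 (limma adjusted p = 0.914), with an interval on the fold of 0.313 to 1.9, and it was 0.11 without BMP3 replicate 2. The second Phex probe set, 1450445_at, designed on the same sequence record, stayed dim at 2.25 and 2.22 in BMP3 arrays and 2.29 and 2.33 in control arrays. It was the single member probe set whose groups did not overlap (1 of 18, against 36.3% of all probe sets), over a difference of -0.07.

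Alpl, the tissue-nonspecific alkaline phosphatase and the usual early enzyme marker of osteoblasts, had 2.44 and 2.40 in BMP3 arrays and 2.23 and 2.41 in control arrays. It has a single probe set, and all 4 values lay below the 95th percentile of 44 odorant receptor probe sets (2.97 to 3.09), genes that mesenchymal cells do not use. A dim probe set does not show that the transcript was absent.

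Sp7, the zinc-finger transcription factor without which no osteoblasts form in the mouse, had 3.23 and 3.27 in BMP3 arrays and 3.20 and 3.26 in control arrays. These values lay above the odorant receptor percentile but below the median of each array, as those of Mepe also did. Pth1r, the receptor for parathyroid hormone and its related peptide, had 2.50 and 2.47 in BMP3 arrays and 2.51 and 2.48 in control arrays. All 4 lay below that percentile.

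The secreted regulators of the list differed from each other. Tnfrsf11b encodes osteoprotegerin, a decoy receptor that binds RANKL and so restrains osteoclast formation. At 1449033_at its log2 values were 10.55 and 11.56 in BMP3 arrays and 11.05 and 11.95 in control arrays. BMP3 replicate 1 was lowest and control replicate 2 highest, and the groups overlapped because BMP3 replicate 2 lay above control replicate 1. The difference was -0.45 ± 0.54 (limma adjusted p = 0.920), with an interval on the fold of 0.232 to 2.31. It was 0.06 without BMP3 replicate 1. Replicate distances of 1.01 in the BMP3 group and 0.89 in the control group were matched or passed by 4.1% and 2.6% of the 17152 brighter probe sets.

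The second Tnfrsf11b probe set, 1418309_at, was dim, at 3.02 and 3.20 in BMP3 arrays and 3.03 and 3.76 in control arrays. The value of control replicate 2 was above the highest odorant receptor value of its array (3.66), and this was also the array with the highest value at the brighter probe set. Sost, which encodes the osteocyte Wnt antagonist sclerostin, lay between 1.60 and 2.88 over its 2 probe sets and 4 arrays, with differences of at most 0.02 in size.

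Read as a list, the markers had no common direction. Taking the brightest probe set of each gene, 5 were higher and 5 lower in BMP3 arrays, with a median log2 difference of -0.004, beside -0.017 over all probe sets. That split rests on dim genes with differences near 0 and was 8 higher and 2 lower under quantile normalization, median centring and cyclic loess. Of the 7 bright member probe sets, 5 were higher (Dmp1 and Sparc) and 2 lower (Phex and Tnfrsf11b), with a median of 0.08, beside 0.00 over the 17152 brighter probe sets. At 0 of these 7 did the groups stay apart without overlap, while they did so at 48.6% of the 17152. At 0 of the 7 was the unadjusted p under 0.05, which 19.0% of the 17152 reached. A mean difference of 1.5-fold or more was seen at 3 of the 7 in the higher direction, all of Dmp1 (3.63% of the 17152), and at 0 of the 7 in the lower (7.45%). With 2 arrays against 2, an exact permutation test of a single gene cannot give a two-sided p below 0.333.

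Other genes of bone matrix and mineralisation were measured beside the markers. Of 16 listed, 10 had a probe set of their own and 8 averaged the dim level or more. At an unadjusted p under 0.05, 2 of these 8 were higher, as were 8.92% of the 17152 brighter probe sets and 3.70% of all, and 1 was lower, as were 10.1% of the brighter ones and 4.69% of all. The adjusted threshold was passed by 0. Genes are named here by small unadjusted p, a choice that favours close replicates. Ank (also called Ankh), which carries pyrophosphate, an inhibitor of mineralisation, out of cells, had 14.63 and 14.27 in BMP3 arrays and 13.42 and 13.27 in control arrays. Its difference was 1.10 ± 0.16 (limma adjusted p = 0.312). Both BMP3 arrays lay above both control arrays, while groups did not overlap in either direction at 48.6% of the 17152.

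The phosphate transporter gene Slc20a2 had 8.79 and 8.93 in BMP3 arrays and 8.01 and 8.30 in control arrays, a difference of 0.71 ± 0.13 (limma adjusted p = 0.384), while its second, dim probe set had 0.00. Without BMP3 replicate 2 its unadjusted p was 0.0537. Its relative Slc20a1 was named after its values were seen, and only the brightest of its 3 probe sets was examined. That probe set had 13.32 and 13.84 in BMP3 arrays and 11.61 and 12.72 in control arrays (difference 1.42 ± 0.49, limma adjusted p = 0.626). The groups did not overlap at the brightest probe set of either transporter, as at 48.6% of the brighter probe sets. Ogn, which encodes the matrix proteoglycan osteoglycin, was the lower gene, with 15.04 and 15.06 in BMP3 arrays and 15.57 and 15.56 in control arrays. Its difference was -0.52 ± 0.03 (limma adjusted p = 0.217), and that of its second probe set was -0.80 ± 0.11. Col1a2, a chain of type I collagen, the main protein of bone matrix, differed by 0.12 ± 0.04 at the brightest of its probe sets and by -0.04 and -0.16 at the others.

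**Figure D3:**
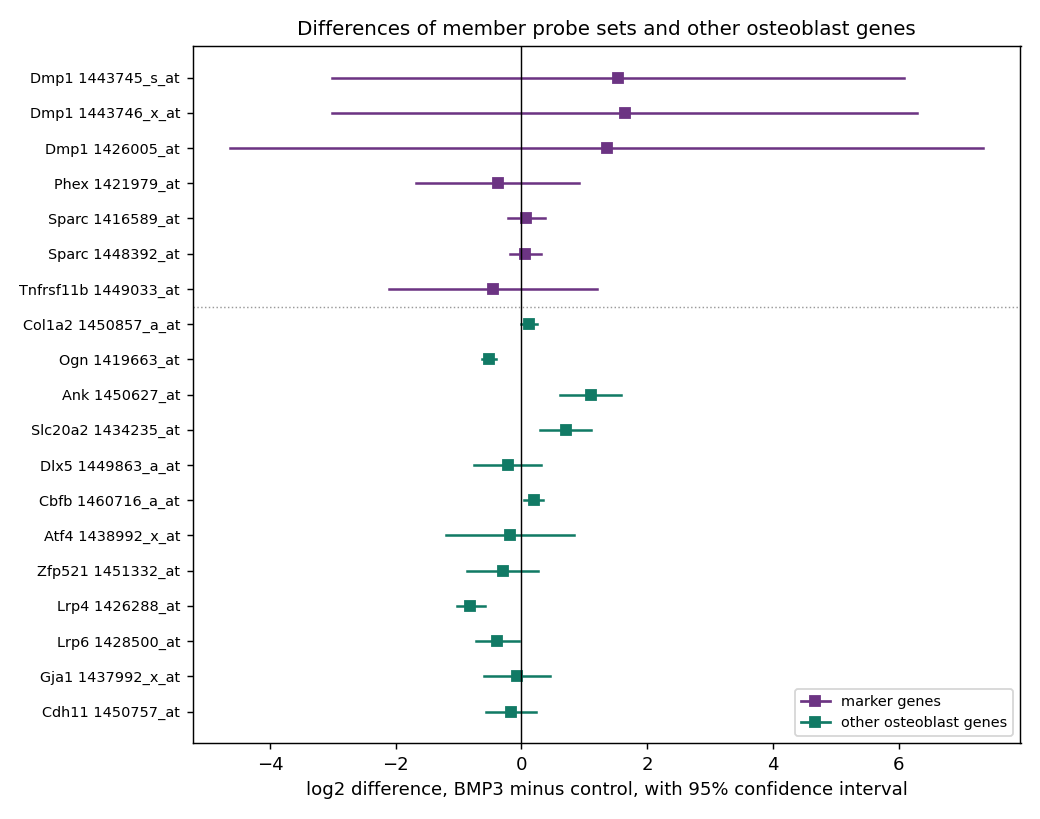
Log2 difference, BMP3 minus control (horizontal axis, square), with its 95% confidence interval from limma (line), for the 7 bright member probe sets (purple) and the 12 other osteoblast genes named by rule (green). All 7 member intervals cross 0, and that of Dmp1 1426005_at spans -4.63 to 7.34, while that of Ank spans 0.62 to 1.58.

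Of 8 listed osteoblast transcription factors, 7 were measured and 5 averaged the dim level or more, of which 1 was higher and 4 lower. Cbfb, the partner subunit of RUNX proteins, had 12.63 and 12.56 in BMP3 arrays and 12.38 and 12.43 in control arrays (difference 0.20 ± 0.05, limma adjusted p = 0.479). It was the 1 gene of the group with an unadjusted p under 0.05 (0.0253), where 8.92% of the brighter probe sets were so called in that direction. The limma unadjusted p of Cbfb was 0.0669 with the replicate number as a block, and 0.178 if dim probe sets were left out of the fit. It was 0.0349 under quantile normalization, 0.0037 under median centring and 0.0397 under cyclic loess. Over the fits that leave out 1 array each, the difference of Cbfb ran from 0.159 to 0.232. The homeobox gene Dlx5, an activator of Sp7, had 9.36 and 8.94 in BMP3 arrays and 9.38 and 9.36 in control arrays, so it was bright where Sp7 was dim. Its difference was -0.22 ± 0.17, and -0.009 without BMP3 replicate 2. Zfp521, a zinc-finger antagonist of osteoblast differentiation, had -0.30 ± 0.19, and -0.069 without control replicate 2. The stress factor Atf4, which osteoblasts need for collagen synthesis, had -0.18 ± 0.33 at its brightest probe set, which turned to 0.19 without BMP3 replicate 1. Its other bright probe set had the opposite sign, 0.23 ± 0.40. The homeobox genes Dlx3 and Msx2 stayed dim.

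Among 13 ligands, receptors and partners of the markers, 12 were measured and 5 averaged the dim level or more. At an unadjusted p under 0.05, 2 of these 5 were lower (10.1% of the brighter probe sets) and 0 higher (8.92%), and 0 passed the adjusted threshold. Lrp4, a receptor through which sclerostin acts, had 9.73 and 9.67 in BMP3 arrays and 10.58 and 10.43 in control arrays (difference -0.81 ± 0.07, limma adjusted p = 0.247). The Wnt co-receptor gene Lrp6, the other target of sclerostin measured above the dim level, had 11.07 and 10.80 in BMP3 arrays and 11.33 and 11.31 in control arrays. Its difference was -0.39 ± 0.11, and its second probe set had -0.84 ± 0.18. The limma unadjusted p of its brightest probe set was 0.0376, and 0.0571 if dim probe sets were left out of the fit. It was 0.0272 with the replicate number as a block, 0.0399 under quantile normalization, 0.0382 under median centring and 0.0342 under cyclic loess. Over the fits that leave out 1 array each, the difference of that probe set ran from -0.523 to -0.253. The groups did not overlap for either gene, as at 48.6% of the brighter probe sets.

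The gap junction gene Gja1, which links osteocytes, had -0.07 ± 0.17 at its brightest probe set, which turned to 0.14 without BMP3 replicate 1. Its 3 other bright probe sets had -0.30, -0.28 and -0.07. At the first pair of these the groups did not overlap, as at 48.6% of the brighter probe sets. Cdh11, the osteoblast cadherin gene, had -0.16 ± 0.13, and -0.036 without BMP3 replicate 1. The genes of RANKL (Tnfsf11) and RANK (Tnfrsf11a), of parathyroid hormone (Pth) and of the phosphate hormone Fgf23 stayed dim, as did Lrp5, Tnfsf10 and Dkk1. The brightest probe set of osteoprotegerin was thus above the dim level, while the brightest of RANKL lay between 2.79 and 2.88 and the brightest of RANK between 3.15 and 3.22.

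**Figure D4:**
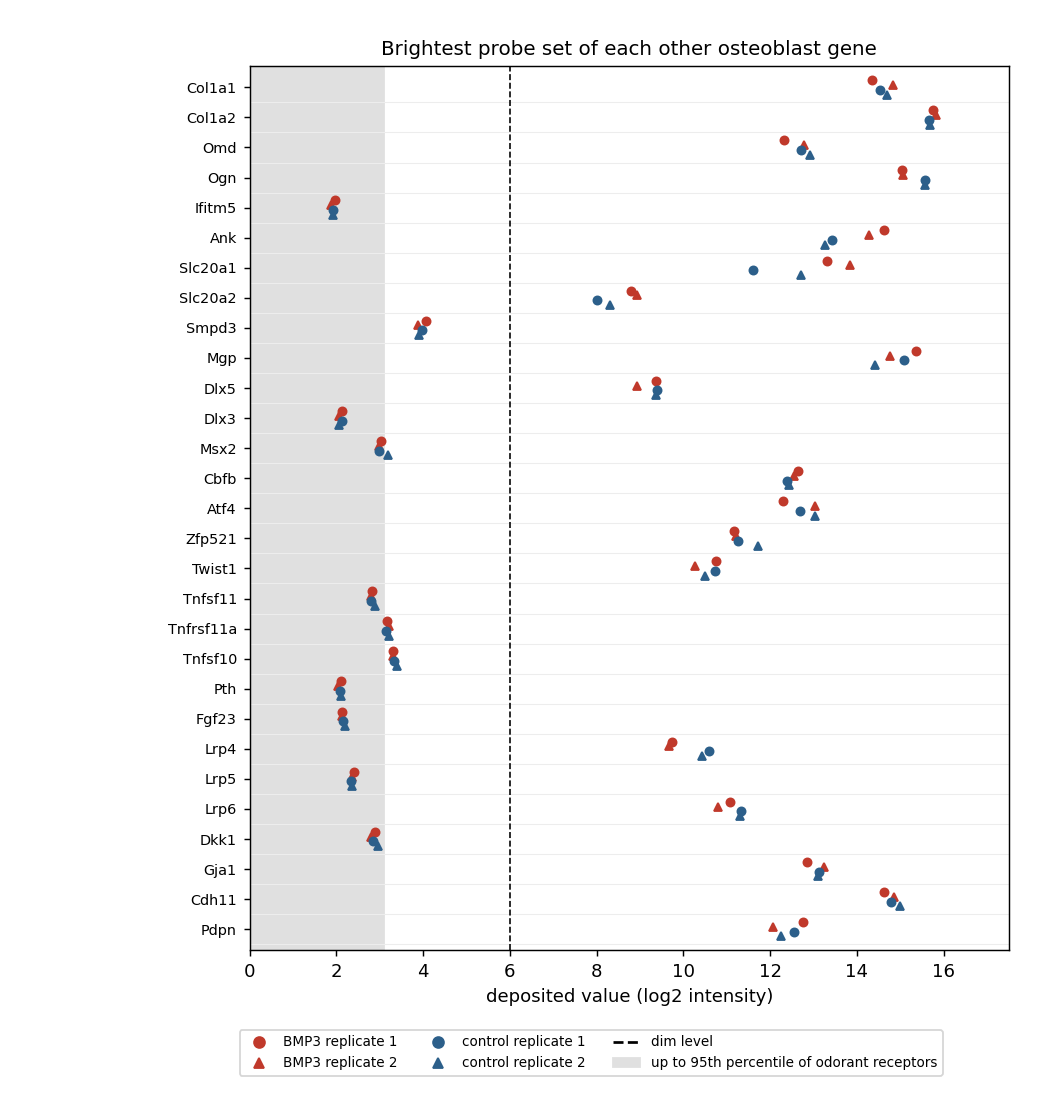
Deposited log2 intensity (horizontal axis) of the brightest probe set of each measured gene in the lists of bone matrix and mineralisation, transcription factors, and ligands, receptors and partners (rows), with arrays, line and band as in the plot of member probe sets. BMP3 and control points do not overlap for 10 of the 18 genes right of the line, a share near the 48.6% of all brighter probe sets, and 11 genes stay left of it.

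The arrays had median log2 values of 3.31 to 3.36 (BMP3) and 3.35 to 3.40 (control). Of 9 mesenchymal or fibroblast markers 8 averaged the dim level or more, Nt5e being dim, and the list averaged 12.01 to 12.26 in BMP3 arrays and 12.01 to 12.15 in control arrays. Of the 8 brighter markers of this list, 3 were higher and 5 lower in BMP3 arrays, with a median log2 difference of -0.08. Of the 8, 2 (Thy1 and Cd44) were higher at an unadjusted p under 0.05 and 0 lower. Among the brighter probe sets 8.92% were so called in the higher direction and 10.1% in the lower. The dim level was reached on average by 0 of 5 chondrocyte, 0 of 5 skeletal muscle, 0 of 6 haematopoietic or osteoclast and 0 of 4 endothelial markers, and by 1 each of 4 adipocyte and 4 epithelial markers, Fabp4 (8.63 to 9.66) and Epcam (9.37 to 9.63). The Epcam values came from 1447899_x_at, the brighter of its 2 probe sets, whose suffix marks probes that can also match other transcripts. The probe sets of 18S ribosomal RNA averaged 8.99 and 9.90 in BMP3 arrays and 11.41 and 10.50 in control arrays, and the poly-A spike-ins 6.46 and 6.50 in BMP3 arrays and 7.76 and 6.89 in control arrays, as log2 means of their probe sets. These control probe sets moved with the groups, as the values of Ank, Slc20a2, Ogn and Lrp4 did, and their part in those differences was not tested. In bulk RNA, fewer cells making a transcript and less of it per cell cannot be told apart.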

How the data were processed

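Total RNA was hybridised to Affymetrix 3' expression arrays, per the labels' protocols. The authors deposited 1 value per probe set and array, read here as log2 intensity from the range of the values, which no source used here states. With another log base each fold would change. The submitters' processing notes name Partek. Background correction, normalization and probe summary were each not given in the sources used here. A normalization that equalises arrays would hide a shift of most transcripts.

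Values were used as deposited, without 64 control probe sets. Symbols came from the platform annotation: 34945 probe sets had 1 symbol, 932 several and 9160 none. BMP3 and control arrays were compared in R 4.3.3 with limma 3.58.1 (lmFit, eBayes, no block, two-sided), with Benjamini-Hochberg adjustment over 45037 probe sets and a threshold of 0.05. The fit was tested on simulated data with independent noise on each array. That test does not cover deviations shared by arrays of the same replicate number. The dim level was a log2 value of 6, on every array for members and on average for other genes. Replicate numbers are shared between groups, and the deviations of same-numbered arrays correlated at 0.596 over brighter probe sets. With 2 pairs and no label on a shared day, this did not count as pairing.

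The 10 members and the other lists were chosen with earlier results of these data known. The named genes were all members and, from each of 3 lists, up to 4 genes of smallest unadjusted p that averaged the dim level or more. A gene outside the members was represented by its brightest probe set. Of 37 other osteoblast genes listed, 8 without a probe set of their own are not analysed here. Neighbours of Dmp1 were taken by position. Other scalings, filters and variance priors, the block and each array left out were tried. The number of arrays limits the precision.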

Additional observations from a re-analysis of the deposited data

How the results depend on the processing

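No member probe set passed the adjusted threshold under any alternative. Adjusted p was recorded there for the bright member probe sets alone, and the lowest was 0.154. With the replicate number as a block, 0 probe sets were called in all. The block leaves each difference unchanged, since each replicate number has 1 array in each group. Dmp1, with differences of 1.36 to 1.64, had limma unadjusted p of 0.00518 to 0.00908 and adjusted p of 0.154 to 0.175 under it. Tnfrsf11b had a difference of -0.447 at its bright probe set (limma unadjusted p = 0.00762, adjusted p = 0.167). How many of all probe sets had an unadjusted p this small under the block was not counted. Whether these p-values set Dmp1 and Tnfrsf11b apart from other probe sets was therefore not tested. Among the 7 bright member probe sets, a direction turned only where 1 array was left out. Over the brightest probe set of each gene, the 5 higher and 5 lower became 8 and 2 under quantile normalization, median centring and cyclic loess, which turned dim genes with differences near 0. Over the fits that leave out 1 array each, the brightest Dmp1 probe set ran from 0.037 to 3.04, 1443746_x_at from 0.108 to 3.18, 1426005_at from -0.511 to 3.22, Phex from -0.861 to 0.108, Tnfrsf11b from -0.954 to 0.06, and Sparc from -0.028 to 0.192 and from -0.025 to 0.154. In the same fits Atf4 ran from -0.554 to 0.187, Gja1 from -0.279 to 0.137, and the members' median from -0.011 to 0.019. That median was 0.019 under quantile normalization, 0.034 under median centring and -0.147 over the 4 bright genes alone. Counts over all probe sets were 3779 at an unadjusted p under 0.05, 1265 if a 1.5-fold difference was also required, and 1 with a trended, robust variance prior (Rarres2, difference -1.40, dim in both groups, named after its values were seen). Member probe sets counted as expressed numbered 8 at a level of 5, 6 at 7, 10 by the odorant receptor percentile and 8 by the array median, against 7. The causes of these changes were not tested.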
